A study of Mus musculus with 33 samples.

Results

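Oct4 binding sites were examined that were found in wild type (WT) mouse embryonic stem cells (ESCs), had no counterpart in Uhrf1 knockout (KO) ESCs, and lay where Uhrf1 itself was enriched. A site was taken when an Oct4 summit of WT ESCs had no Oct4, Sox2 or Nanog summit of KO ESCs within 100 bp and fell in a 10 kb window enriched for Uhrf1 in WT ESCs. Of 12898 WT Oct4 summits, 6184 had no KO summit within 100 bp (47.9%), 1423 lay in a Uhrf1 window (11%), and 1095 met both conditions. These 1095 are called bare lost sites inside Uhrf1 windows, and they made up 17.7% of the 6184 bare lost sites (95% interval 16.8 to 18.7). The sites were thus chosen by the positions of WT and KO summits and of Uhrf1 windows, and neither the loss of Oct4 nor the overlap with Uhrf1 is a result here.

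The series measured proteins and histone marks on DNA by ChIP-seq, in which DNA bound by an antibody's target is recovered and sequenced, in E14 ESCs and in embryoid bodies (EBs), aggregates in which the cells differentiate, at weeks 1, 2 and 3. Of 33 samples, 17 came from WT cells and 16 from Uhrf1 KO cells, and the methods of the study give the E14 and Uhrf1 KO ESCs as lines obtained from another laboratory. They also name a Cre-expressing retrovirus as the means by which Uhrf1 KO lines were made. The paper describes such deletion for a separate ESC line and for fibroblasts, both from Uhrf1 fl/fl mice. How the obtained KO line was made, and whether each KO library came from 1 clone, is not given in the sources used here. Lists of enriched regions from 25 samples were used: H3K4me3 and H3K27me3 in both genotypes at the 4 stages, H3K9me3, Oct4, Sox2 and Nanog in ESCs of both genotypes, and Uhrf1 in WT ESCs. Each group held 1 library, so no difference can be set against a spread between replicates and no p-value is given; intervals are 95% intervals that cover counting error over sites only, and sites that share a window, a domain or a sequence are not independent. The lists hold no expression values and no Uhrf1 list of KO cells was used, so neither the cell type nor the knockout was checked here.

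The KO Oct4 list was short, with 576 summits against 12898 in WT ESCs, while the KO lists of Sox2 (20755 against 5190) and Nanog (10632 against 2390) were longer than the WT lists. A site therefore counts as lost because no KO summit was listed near it, and a lower share of cells with Oct4 at a site cannot be told apart from less Oct4 per cell. The 328 other WT Oct4 sites inside Uhrf1 windows, which had a KO summit within 100 bp, and 4913 bare lost sites outside the windows serve as comparison groups. Another 176 bare lost sites outside lay on contigs not placed on a chromosome, where no window or histone domain was listed, and were left out of the comparisons.

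Oct4 (Pou5f1) is a POU transcription factor that maintains pluripotency and binds the octamer ATGCAAAT, often beside Sox2 on a joint Sox-Oct element. Uhrf1 recognises hemimethylated DNA and H3K9me3 and recruits the maintenance DNA methyltransferase Dnmt1. H3K9me3 marks heterochromatin and silenced transposons, H3K27me3 is laid down by the Polycomb complex PRC2 at repressed developmental genes and, in broad domains, over intergenic DNA, and H3K4me3 marks active and poised promoters.

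Most of the bare lost sites inside Uhrf1 windows were copies of a few sequences. Sites were linked when the sequences 100 bp either side of their summits shared at least 50 words of 21 bases on either strand, and 8 linked sets of at least 10 sites, called families A to H, took in 905 of the 1095 sites (82.6%). The sequence below is, for each family, 50 bp either side of the tallest summit among the sites with at least the family's median number of copies, read on the plus strand of NCBIM37, the assembly that equals mm9; the families were built after the data had been examined. Capitals mark the degenerate octamer ATGCNAAT on either strand and the letters GCCATCTT, which were noticed in family A and then searched on both strands.
Family A, chr1:143086643-143086743: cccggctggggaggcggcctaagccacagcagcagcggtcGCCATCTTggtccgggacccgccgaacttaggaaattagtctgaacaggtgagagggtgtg
Family B, chr8:60642843-60642943: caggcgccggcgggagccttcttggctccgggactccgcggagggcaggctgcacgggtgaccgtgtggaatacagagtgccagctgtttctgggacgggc
Family C, chr16:79375682-79375782: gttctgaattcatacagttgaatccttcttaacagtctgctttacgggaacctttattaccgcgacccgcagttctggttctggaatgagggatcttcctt
Family D, chrX:146387246-146387346: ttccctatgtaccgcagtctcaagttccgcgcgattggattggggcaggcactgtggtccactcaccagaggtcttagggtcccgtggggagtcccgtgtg
Family E, chr8:59422091-59422191: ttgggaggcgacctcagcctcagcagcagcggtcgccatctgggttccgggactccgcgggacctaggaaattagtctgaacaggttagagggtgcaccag
Family F, chr17:82366724-82366824: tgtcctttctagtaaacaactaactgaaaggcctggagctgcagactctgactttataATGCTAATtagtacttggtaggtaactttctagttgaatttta
Family G, chr5:87469647-87469747: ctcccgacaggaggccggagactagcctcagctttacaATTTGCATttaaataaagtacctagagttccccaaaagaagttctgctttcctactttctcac
Family H, chr10:54418331-54418431: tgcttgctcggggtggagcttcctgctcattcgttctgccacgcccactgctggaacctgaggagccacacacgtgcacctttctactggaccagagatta
Families A, B, D and E held 738 sites (67.4%) and were rich in G and C, families F and G carried the degenerate octamer, and families C, D and H had neither the octamer nor the letters GCCATCTT.

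The tallest sites of the classes of chromatin described below, and the tallest with the degenerate octamer, are given in the same way. They are the strongest summits of their classes, not of all the sites, and mostly lie outside the large families.
Tallest site, no domain, chr4:146347387-146347487: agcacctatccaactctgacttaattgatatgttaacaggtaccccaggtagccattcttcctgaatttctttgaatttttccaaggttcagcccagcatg
Tallest site with the degenerate octamer, chr4:3202089-3202189: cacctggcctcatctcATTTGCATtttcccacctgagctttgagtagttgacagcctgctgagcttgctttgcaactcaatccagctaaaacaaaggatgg
Tallest site under H3K27me3 alone, family F, chr14:50228348-50228448: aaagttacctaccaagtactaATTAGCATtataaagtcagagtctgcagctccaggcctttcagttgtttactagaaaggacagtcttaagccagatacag
Tallest site under H3K4me3, chr13:13005798-13005898: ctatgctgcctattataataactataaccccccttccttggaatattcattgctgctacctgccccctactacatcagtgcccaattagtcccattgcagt
Tallest site under H3K9me3 and H3K27me3, chr5:80255700-80255800: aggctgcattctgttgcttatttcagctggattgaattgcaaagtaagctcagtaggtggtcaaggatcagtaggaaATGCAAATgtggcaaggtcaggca
The degenerate octamer stood within this stretch at 3 of these 5 sites, but the site named for the octamer was chosen because it carries it. The tallest site under H3K9me3 alone, shown above for family C, lacks the octamer and is not among the 5. The count of 3 is thus partly set by the choice of sites. Over all bare lost sites inside windows, 75 of 1094 had the degenerate octamer within 100 bp (6.86%). Of the 5, only the site under both H3K9me3 and H3K27me3 has central 51 bases that occur once in the assembly.

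Summit heights of the bare lost sites were low. The height, the number of reads at the summit, had a median of 23 over the 1095 sites, with a range of 12 to 116 and an interquartile range of 19 to 29. The 4913 bare lost sites outside the windows had a median of 31 (11 to 156), and the 328 other Oct4 sites inside windows a median of 39 (14 to 168), against 37 over 12697 WT Oct4 sites on placed chromosomes. The groups overlapped over most of their range. Among the bare lost sites inside windows, the 75 with the degenerate octamer had a median of 37 (21 to 85) against 23 (12 to 116) for the 1019 without it. Sites whose central 51 bases were unique had a median of 28 (n = 90), those with 2 to 99 copies 25 (n = 327) and those with 100 or more copies 23 (n = 678). Sites under different WT domains had near equal medians, from 22 under H3K27me3 alone to 24.5 under H3K4me3.

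**Figure D1:**
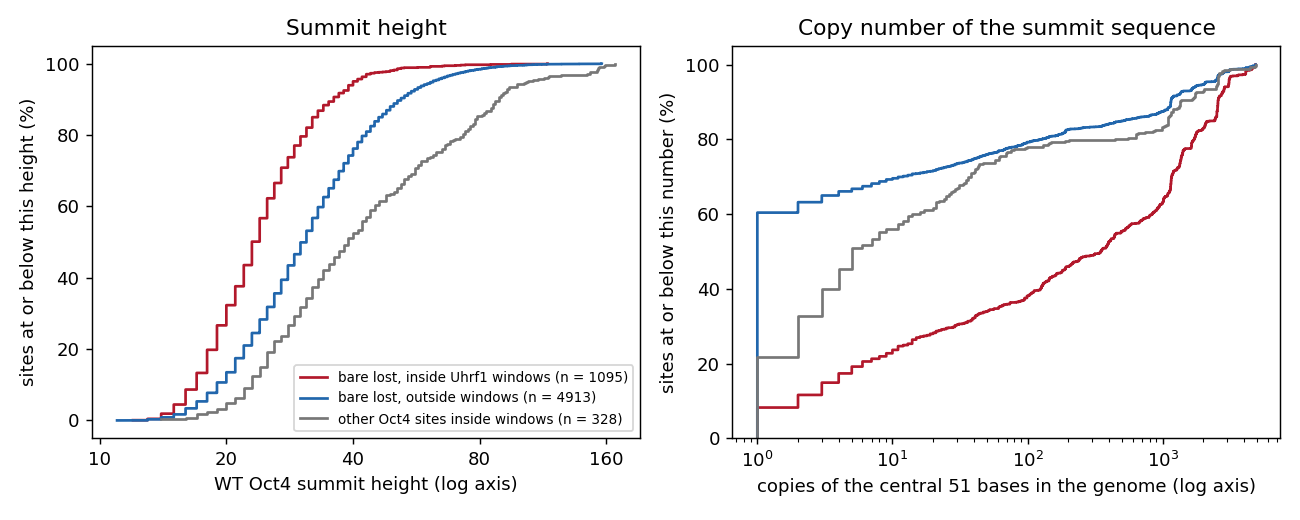
Cumulative share of sites (%) against WT Oct4 summit height in reads (left, log axis) and against the number of exact copies of the central 51 bases in the assembly (right, log axis), for bare lost sites inside Uhrf1 windows, bare lost sites outside and other Oct4 sites inside windows. The bare lost sites inside windows lie to the left in height (median 23 against 31 and 39) and to the right in copies (91.8% with 2 or more copies against 39.6% and 78.4%).

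The central 51 bases of the summit occurred 2 or more times in the genome at 1005 of the 1095 sites (91.8%, 90 to 93.3), against 31.4% of all WT Oct4 sites. Outside the windows the share of bare lost sites was 39.6%, a difference of 52.2 percentage points (49.9 to 54.2), and at the other Oct4 sites inside windows it was 78.4%, a difference of 13.4 points (8.95 to 18.4). At the midpoints of all Uhrf1 windows 65.2% had 2 or more copies. At highly repeated sequence, 61.9% of the bare lost sites inside windows had 100 or more copies (15.2% of all WT Oct4 sites), against 20.7% outside (a difference of 41.2 points, 38.04 to 44.2), 22.0% at the other Oct4 sites inside (39.97 points, 34.4 to 45.0) and 26.6% at window midpoints. The excess of repeated sequence over bare lost sites outside held within each of 5 groups of height, from 36.4 points (31.9 to 40.5) in the lowest to 69.0 points (57.0 to 76.4) in the tallest. The authors kept 1 alignment per read, so at a repeated sequence the copy a read came from is not known, and the part this has in the results was not tested.

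The bare lost sites were also rich in G, C and CpG, the dinucleotide that carries DNA methylation. GC content of the same stretch of 100 bp either side was 58.4% ± 9.40 (SD over sites, n = 1094), against 52.7% ± 9.34 at bare lost sites outside and 50.9% ± 9.66 at the other Oct4 sites inside windows. CpG stood at 5.04 ± 2.38 per 100 bp, against 3.10 ± 2.92 and 2.66 ± 2.83. All 3 groups spread widely, and within the bare lost sites the families differed: CpG was 5.91 ± 1.11 per 100 bp in family A, 6.34 ± 0.826 in family E, 2.54 ± 0.737 in family G and 0.649 ± 0.388 in family F.

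Few of the sites carried the motif Oct4 is known for. The octamer ATGCAAAT was found within 100 bp, on either strand, at 29 of 1094 sites (2.65%, 1.85 to 3.78), against 10.2% of all WT Oct4 sites, 9.28% of bare lost sites outside, 16.8% of the other Oct4 sites inside windows and 2.34% of window midpoints. The degenerate octamer ATGCNAAT, which includes the octamer, was found at 75 sites (6.86%, 5.50 to 8.51), against 16.9% of all, 16.3% outside, 24.2% of the other sites inside and 4.13% of midpoints. The difference from bare lost sites outside was -9.45 points (-11.2 to -7.51) and that from the other sites inside -17.3 points (-22.4 to -12.7). The joint Sox-Oct letters, TTGTN directly before ATGCNAAT, were found at 0 of 1094 sites, which allows a share of up to 0.274% (3 counts of the total), at 17 of 4913 sites outside and at 5 of 327 other sites inside. The absence of a match says only that these letters are not in this window.

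The octamer was unevenly shared among the sequences: 53 of its 75 degenerate matches were in families F and G, which hold 60 sites, 22 were among the 190 sites outside the families, and none was among the 845 sites of families A to E and H. The letters GCCATCTT stood at 529 of 1094 sites (48.4%, 45.4 to 51.3), against 11.7% of all WT Oct4 sites, 15.6% of bare lost sites outside, 19.9% of the other Oct4 sites inside and 2.81% of window midpoints, and 441 of the 529 were in family A. These letters were chosen because they recur in family A, so their share describes the family.

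Family A held 495 of the 1095 sites (45.2%), with a median height of 24 (14 to 44) and a median of 1359 copies of the central 51 bases. Family B had 103 sites (median height 19, 13 to 35), family C 97 (29, 15 to 52), family D 80 (17, 13 to 26) and family E 60 (18, 14 to 40). Families F and G were smaller and taller: 37 sites with a median height of 37 (22 to 72) and 23 sites with a median of 40 (25 to 52). Family H had 10 sites with a median height of 22 (18 to 26). Each of families A to E was spread over 19 to 21 chromosomes, and family A reached 20 with 72 of its sites on X. Outside the families, 90 sites were in smaller linked sets and 100 were linked to no other.

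The same families were found at Oct4 sites that did not meet the rule. Counting all WT Oct4 sites linked to a member, 22.7% belonged to a family, among them 1610 of 4913 bare lost sites outside windows (32.8%) and 132 of 327 other Oct4 sites inside (40.4%); since the families were built from the bare lost sites inside windows, their own 82.7% is not a like for like share. Family A alone had 692 bare lost sites outside windows, more than the 495 inside, with the same median height of 24 and a median of 1338.5 copies. Family C had 393 outside against 97 inside, and families F and G 124 and 99 outside against 37 and 23.

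The families were built from sites chosen for lying in Uhrf1 windows, so the share of windows that hold their sequence is given as a description. Of 13644 Uhrf1 windows, 4619 held at least 50 of the words that belong to 1 family alone (33.9%, 33.1 to 34.7), against 19673 of 242399 other 10 kb windows (8.12%, 8.01 to 8.23). Among the 12604 Uhrf1 windows without a bare lost site, 3714 did so (29.5%, 28.7 to 30.3). By family, with the windows of the sites themselves counted, the share was 18.1% against 5.58% for A, 9.82% against 1.06% for D, and 0.594% against 0.116% for F.

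**Figure D2:**
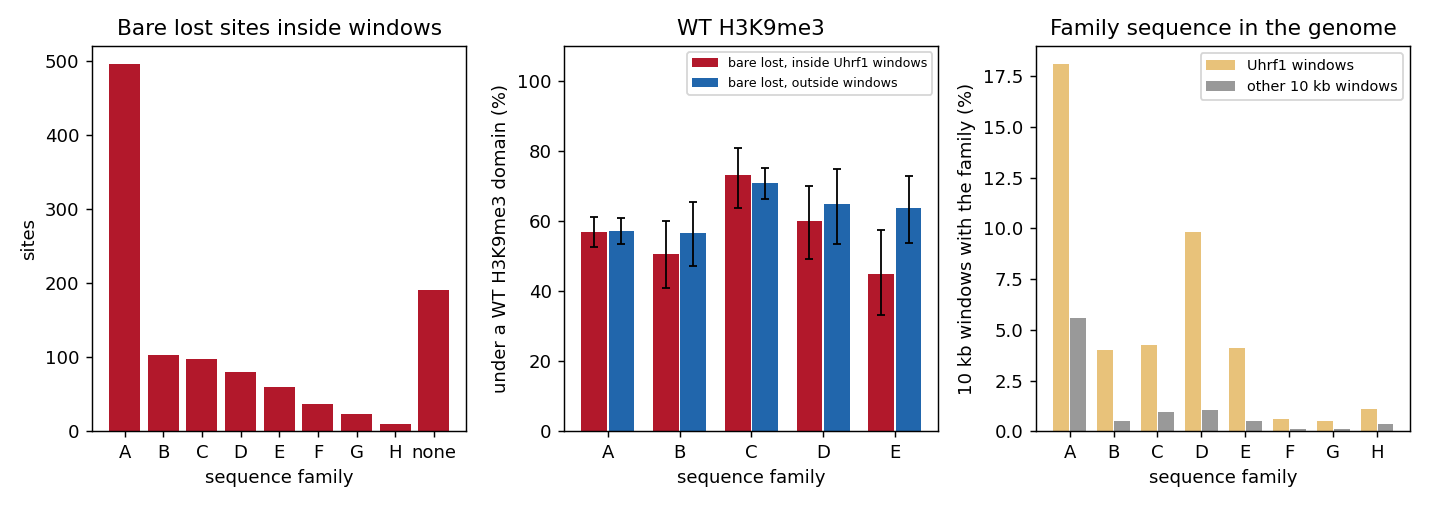
Number of bare lost sites inside Uhrf1 windows in each sequence family (left), share of the sites of families A to E under a WT H3K9me3 domain inside and outside windows (centre, %, bars with 95% Wilson intervals) and share of 10 kb windows that hold sequence of a family (right, %), where the Uhrf1 windows include those of the sites that defined the families. Family A is the largest with 495 sites, and its H3K9me3 share was 57.0% inside and 57.2% outside.

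In WT ESCs the bare lost sites inside windows lay mostly under repressive domains or under none. H3K9me3 covered 571 of 1095 sites (52.1%, 49.2 to 55.1), against 42.2% of all WT Oct4 sites on placed chromosomes, and H3K27me3 covered 493 (45.0%, 42.1 to 48.0), against 31.4% of all. H3K4me3 covered 42 sites (3.84%, 2.85 to 5.14), against 38.6% of all WT Oct4 sites. The domains of the repressive marks were broad: the H3K9me3 domains over these sites had a median length of 216 kb and the H3K27me3 domains 232 kb, so a domain over a site does not place the mark at the summit.

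Against bare lost sites outside windows, H3K9me3 was 6.13 points more frequent (2.85 to 9.38; 46.0% outside), H3K27me3 11.9 points more frequent (8.72 to 15.2; 33.1% outside), and the difference for H3K4me3 was -29.7 points (-31.3 to -27.8; 33.5% outside). Among summits at or above the median height of all WT Oct4 sites, the differences were 1.77 points for H3K9me3 (-7.68 to 11.8) and 0.504 points for H3K27me3 (-7.66 to 10.2), and without family A that for H3K9me3 was 3.98 points (-0.266 to 8.25). The differences for the repressive marks varied with how often the summit sequence recurred. At sites with a unique central 51 bases, 51 of 90 sites inside (56.7%) and 37.2% outside were under H3K9me3, a difference of 19.5 points (9.04 to 29.4), whereas at sites with 2 or more copies the difference was -7.77 points (-11.5 to -3.98). H3K27me3 was more frequent inside by 21.1 points (10.8 to 31.3) at unique sites and by 6.71 points (2.96 to 10.5) at repeated ones. H3K4me3 was less frequent inside in both, with differences of -36.9 points at unique sites (-42.7 to -28.1) and -5.08 points at repeated sites (-6.65 to -3.40). The repeated sites were not uniform. At 2 to 99 copies the differences were -17.5 points for H3K9me3 (-23.6 to -11.2), 5.45 for H3K27me3 (-0.325 to 11.5) and -8.05 for H3K4me3 (-11.0 to -4.52). At 100 or more copies they were -2.74 (-7.54 to 2.05), 3.48 (-1.36 to 8.31) and -1.57 (-3.14 to 0.122), and all 3 intervals took in 0.

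Against the other Oct4 sites inside the same kind of window, H3K9me3 was 10.99 points (4.83 to 16.96) and H3K27me3 13.3 points (7.33 to 18.95) more frequent at the bare lost sites, while the difference for H3K4me3 was -8.97 points (-13.1 to -5.52). Among summits at or above the median height of 37, these differences for H3K9me3 and H3K27me3 were 1.15 points (-10.6 to 13.1) and -3.03 points (-13.6 to 8.34). Of the base pairs of all Uhrf1 windows, 46.0% were under H3K9me3, 38.9% under H3K27me3 and 2.42% under H3K4me3 beside the 52.1%, 45.0% and 3.84% of the bare lost sites they hold.

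**Figure D3:**
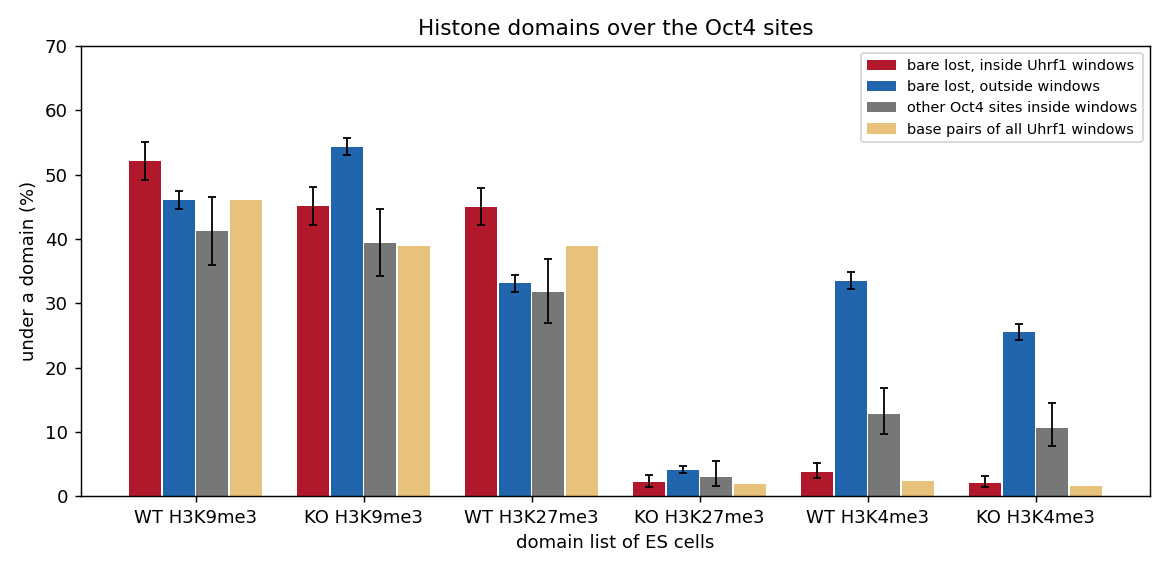
Share of sites under a domain in each ESC list (%, bars with 95% Wilson intervals), for bare lost sites inside Uhrf1 windows, bare lost sites outside and other Oct4 sites inside windows, beside the share of base pairs of all Uhrf1 windows under each list. Inside windows H3K27me3 stood at 45.0% in WT and 2.19% in KO ESCs, and H3K4me3 at 3.84% and 2.1%.

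H3K9me3 and H3K27me3 often lay over the same site. Of the 1095 sites, 358 were under both without H3K4me3 (32.7%), against 17.1% of bare lost sites outside and 19.8% of the other Oct4 sites inside. H3K9me3 alone covered 185 sites (16.9%; 17.8% outside), H3K27me3 alone 110 (10.05%; 7.04% outside) and no mark 400 (36.5%; 24.5% outside), and the other 42 were under H3K4me3 with or without other marks.

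In KO ESCs the H3K9me3 domains over the sites were mostly kept, and few new ones were listed. Of 1095 sites, 494 were under a KO H3K9me3 domain (45.1%, 42.2 to 48.1), against 54% of all WT Oct4 sites and 54.4% of bare lost sites outside, a difference of -9.25 points (-12.5 to -5.98). Of the 571 sites under H3K9me3 in WT, 440 were still under it in KO (77.1%, 73.4 to 80.3), near the 78.0% outside (76.2 to 79.6). Where WT had none, 54 of 524 sites were under a KO domain (10.3%, 7.98 to 13.2), against 908 of 2652 outside (34.2%, 32.5 to 36.1), a difference of -23.9 points (-26.9 to -20.5). At the other Oct4 sites inside windows, 39.3% were under a KO domain, a difference of 5.78 points (-0.339 to 11.7). Of their WT domains 84.4% were kept (77.4 to 89.6), and 15 of 193 sites without one had a KO domain (7.77%, 4.77 to 12.4). A low share of new domains was therefore not particular to the bare lost sites.

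The difference in new H3K9me3 from bare lost sites outside was found in every class of sequence: -23.5 points (-31.9 to -9.0) at unique sites, -17.2 points (-22.5 to -11.3) at 2 to 99 copies and -10.9 points (-16.3 to -5.24) at 100 or more copies. On autosomes alone it was -24.0 points (-27.5 to -19.9). The windows showed the same over their whole length, since 6.68% of their base pairs without WT H3K9me3 were under a KO domain, against 21.9% of such base pairs in the genome. KO domains were long, with a median length over the sites of 960 kb beside the 216 kb of WT domains.

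H3K27me3 was nearly absent from the KO list at these sites. KO domains covered 24 of 1095 sites (2.19%, 1.48 to 3.24), against 4.39% of all WT Oct4 sites and 4.13% of bare lost sites outside. Of the 493 sites under WT H3K27me3, 20 remained under it in KO (4.06%, 2.64 to 6.18), against 10.1% outside (8.72 to 11.6), a difference of -6.03 points (-8.14 to -3.50). Within classes of copies the interval took in 0 in each: the difference was -7.13 points (-13.0 to 4.72) at 1 copy, 1.09 points (-2.77 to 6.88) at 2 to 99 copies and 0.292 points (-2.15 to 3.07) at 100 or more. The KO H3K27me3 list was the shortest of the 18 histone lists, with 722 domains against 8161 in WT, and covered 3.17% of the genome against 36.1%. H3K4me3 was listed in KO at 23 sites (2.1%; 30.3% of all WT Oct4 sites), 19 of them among the 42 sites under it in WT.

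Within the families, the chromatin of sites inside and outside windows was alike for family A. Of its sites, 57.0% were under WT H3K9me3 inside and 57.2% outside, which differ by -0.256 points (-5.96 to 5.42), and 53.5% and 50% were under WT H3K27me3, which differ by 3.54 points (-2.23 to 9.26). KO H3K9me3 covered 50.3% and 54.3%, a difference of -4.03 points (-9.76 to 1.72). Intervals that left out 0 were those of family B for KO H3K9me3 (34.0% inside and 52.8% outside, -18.8 points, -31.2 to -5.42) and of family E for WT H3K9me3 (45.0% and 63.8%, -18.8 points, -33.8 to -2.77), among 15 differences for families A to E. The highest WT H3K9me3 share inside windows among families A to E was that of family C, with 71 of 97 sites (73.2%, 63.6 to 81.0).

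On differentiation, H3K27me3 over the sites was listed unevenly among the WT stages. The share of the 1095 sites under a WT domain was 45.0% in ESCs, 1.46% at week 1, 53.4% at week 2 and 27.2% at week 3, against 31.4%, 9.18%, 36.9% and 28.4% of all WT Oct4 sites. In KO cells it was 2.19%, 2.28%, 12.8% and 14.6%, against 4.39%, 10.5%, 18.9% and 16.7%. Against bare lost sites outside, the WT share differed by -7.01 points at week 1 (-7.99 to -5.84), 11.8 points at week 2 (8.53 to 15.0) and -2.50 points at week 3 (-5.36 to 0.489). The KO share differed by -7.41 points (-8.53 to -6.08), -6.02 points (-8.18 to -3.66) and -2.73 points (-4.98 to -0.285). The share of base pairs of Uhrf1 windows under WT H3K27me3 followed the same order, at 38.9%, 1.77%, 45.1% and 24.7%. H3K4me3 covered between 2.1% and 3.84% of the sites in the 8 lists, against 11.4% to 38.6% of all WT Oct4 sites.

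**Figure D4:**
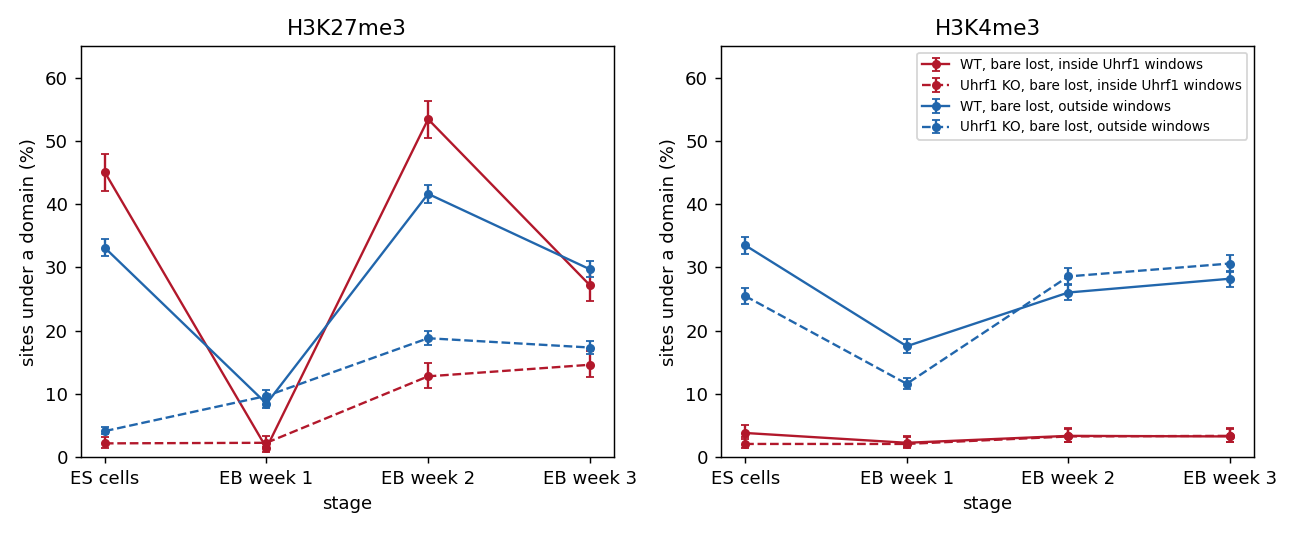
Share of sites under H3K27me3 (left) and H3K4me3 (right) domains (%, points with 95% Wilson intervals) in ESCs and in EBs at weeks 1, 2 and 3, for bare lost sites inside and outside Uhrf1 windows in WT (solid) and Uhrf1 KO (dashed) cells. WT H3K27me3 over the sites inside windows was 45.0%, 1.46%, 53.4% and 27.2%, and H3K4me3 inside windows stayed between 2.1% and 3.84% at every stage.

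Sox2 and Nanog, which occupy many Oct4 sites in ESCs, were rarely listed at these sites in WT ESCs. A WT Sox2 summit lay within 100 bp of 15 sites, a WT Nanog summit of 3, and either of 17 (1.55%, 0.972 to 2.47), against 27.9% of all WT Oct4 sites. The share was 7.999% at bare lost sites outside, a difference of -6.45 points (-7.43 to -5.27), and 34.1% at the other Oct4 sites inside windows, which were defined by a KO Oct4, Sox2 or Nanog summit nearby and so are not an independent comparison for these factors. The 27.9% of all WT Oct4 sites also takes in sites with such a KO summit, so that contrast is partly set by the rule. At sites with 2 or more copies the difference from bare lost sites outside was -1.12 points (-2.04 to -0.0634). In KO ESCs the nearest summit of any of the 3 factors was a median of 72.5 kb away, against 18.1 kb for bare lost sites outside.

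The distances to KO summits put the 100 bp threshold in view. The closest KO summit to a bare lost site inside a window was 102 bp away (site height 39), and the farthest among the 328 excluded sites 99 bp (height 27). There were 57 sites whose nearest KO summit was within 200 bp and another 48 within 500 bp, with median heights of 27 and 23.5, while 857 had none within 10 kb. At the other boundary, 23 sites lay within 100 bp of the edge of their window, with a median height of 24, and 15 bare sites lay outside but within 100 bp of a window, with a median height of 23.

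Genes were far from most of the sites. By the GENCODE annotation, 825 sites were intergenic (75.3%, 72.7 to 77.8; 64.1% of all WT Oct4 sites), 250 were in an intron and 20 in an exon of a protein-coding gene. The intergenic share was 9.48 points above that of bare lost sites outside (6.53 to 12.3), and -0.428 points from it (-3.74 to 2.79) among sites with 2 or more copies. The nearest start of a coding gene was a median of 100.9 kb away (interquartile range 33.4 to 299 kb), against 43.8 kb outside, and 21 sites were within 1 kb of one (1.92%, 1.26 to 2.91; 6.14% of all WT Oct4 sites and 6.94% outside).

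The tallest of the 21 promoter sites lay 824 bp from the start of Gm10595 (height 42, family F, under WT H3K4me3, H3K9me3 and H3K27me3). Hist1h4m, a replication-dependent histone H4 gene, had a site of height 37 in its coding exon at chr13:21903830, and Phf10, a subunit of a SWI/SNF chromatin remodelling complex, one of height 33 at 444 bp from its start, both with no domain in any ESC list. A KO Sox2 summit lay 130 bp from the Hist1h4m site and a KO Nanog summit 132 bp from the Phf10 site. H2-Q6, a class I histocompatibility gene, had a site of height 27 in its UTR, and B3galt4, a galactosyltransferase gene, one of height 24 at 65 bp, both under H3K4me3 in WT and KO. The other 5 of the 10 tallest were at Gm3358 (31), Gm13277 (26), Gm1973 (23), Gm13275 (23) and Gm17404 (21), none of them under a domain in ESCs.

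The tallest sites were spread over several chromosomes. The tallest of all, of height 116 at chr4:146347437, was intergenic, 48.5 kb from Gm13138, with 4 copies of its central 51 bases and no domain in any of the 6 ESC histone lists. The next, of height 95 at chr6:47635713, lay 90.4 kb from Ezh2, the methyltransferase subunit of PRC2, had 15 copies and a GC content of 71.1%, and was under no domain, with a KO Nanog summit 281 bp away. The site of height 85 at chr4:3202139, 89.6 kb from Vmn1r3, a vomeronasal receptor gene, carried the degenerate octamer and had no KO summit within 24.6 kb.

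Of the next 5, the site of height 74 at chr4:145261976 was in an intron of Gm13242 and under no domain. A family F site of height 72 at chr14:50228398, 72.8 kb from 3632451O06Rik, was under WT H3K27me3 alone and had a KO Sox2 summit at 138 bp. A site of height 70 at chr8:20025801, 67.0 kb from Gm15319, was under no domain and had a KO Nanog summit at 128 bp. A site of height 66 at chr13:13005848, 82.5 kb from the prolactin family gene Prl2c2, was under H3K4me3, H3K9me3 and H3K27me3 in WT and KO, with a KO Sox2 summit at 167 bp. A site of height 65 at chr9:89089903, 4.14 kb from Bcl2a1b, an antiapoptotic Bcl2 family gene, was under H3K4me3 and H3K9me3 in both genotypes. The sites tied at height 61 lay nearest to Vmn2r-ps106 (under H3K4me3 in both genotypes), Gm9880 and Gpm6a, a neuronal membrane glycoprotein gene, the last pair under no domain. Thus 4 of these 11 sites were under H3K27me3 or H3K4me3 in WT ESCs, 7 were under no domain, and 10 had 2 or more copies of their central 51 bases. Among the sites tied at height 61, that near Gpm6a had a KO Oct4 summit at 370 bp. The site near Vmn2r-ps106 had a KO Nanog summit at 686 bp.

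Most windows with a site held a single one. The 1095 sites fell in 1040 of 13644 Uhrf1 windows (7.62%): 988 windows held 1, 49 held 2 and 3 held 3, and 57 of the 1040 also held another WT Oct4 site. The windows with 3 sites were chr3:90900001-90910000, 5.35 kb from 9130204L05Rik, with heights of 19, 17 and 19, all of family D under H3K9me3 and H3K27me3; chr4:146550001-146560000 over Gm13139, with heights of 14, 23 and 20 under no mark; and chr16:31380001-31390000, 33.8 kb from Bdh1, with heights of 41, 31 and 25 under H3K9me3 alone. Of the windows with a site, 30.5% adjoined another Uhrf1 window, against 43.7% of all windows.

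The densest megabase was chr4:146000001-147000000, with 27 sites in 66 Uhrf1 windows and heights of 14 to 116, followed by chr4:145000001-146000000 with 13 sites (12 to 74). This region is known for a cluster of zinc finger genes, and none of their 40 sites was in family A. The coding genes nearest to the most sites were Gm13139 and the zinc finger gene Zfp600 with 8 each, in these megabases, and Cntnap5a, a contactin-associated protein gene of neurons on chromosome 1, with 6. Gm13242, Gm7697, Nudt12, Ptprd and Rex2 followed with 5 each. None of the 26 sites of Gm13139, Zfp600, Gm13242 and Rex2 was under WT H3K9me3, H3K27me3 or H3K4me3, whereas 5 of 6 at Cntnap5a and 5 of 5 at Nudt12 were under H3K9me3, as was 1 of 5 at each of Gm7697 and Ptprd.

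The sites were spread over all 19 autosomes, which held 980 of them (89.5%), with 112 on X and 3 on Y. Per 100 Uhrf1 windows there were 8.56 sites on autosomes, from 5.85 to 12.8 by chromosome, and 5.26 on X. The X share was 10.2% (8.57 to 12.2), against 3.98% of all WT Oct4 sites, 3.97% of bare lost sites outside and 15.6% of Uhrf1 windows. Chromosome 4, with the zinc finger cluster, held 109 sites or 12.4 per 100 windows, and chromosome 7, with the most autosomal windows (1421), held 87 or 6.12 per 100.

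**Figure D5:**
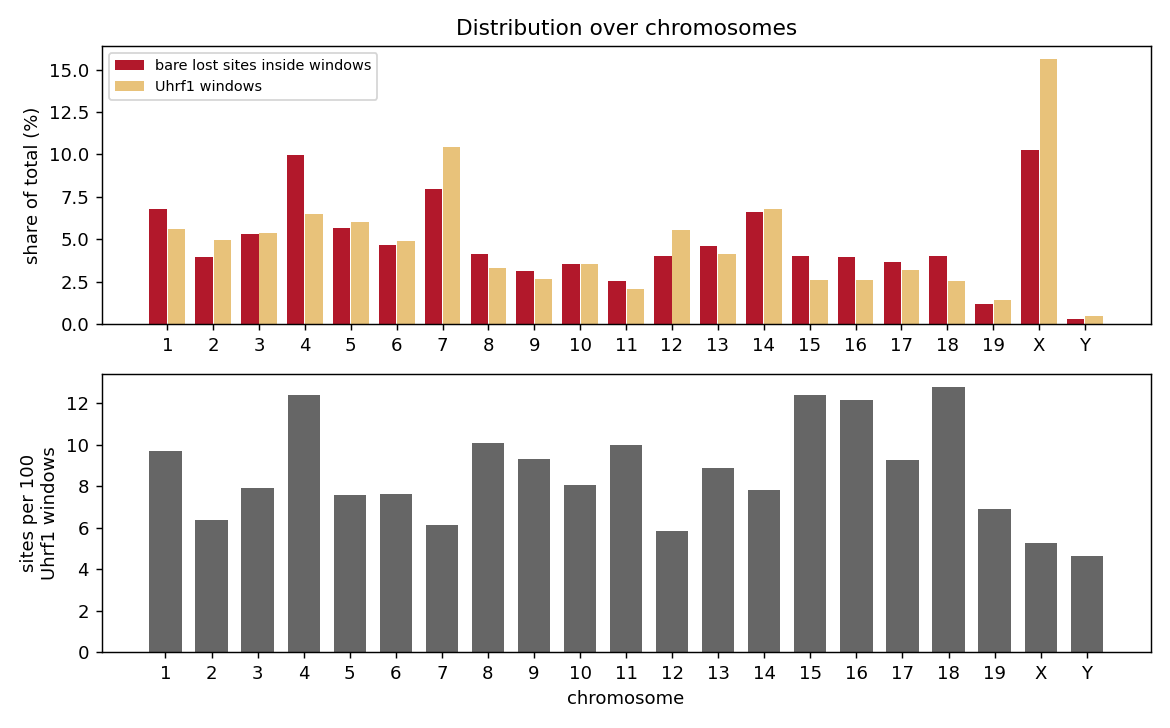
Share of the 1095 bare lost sites and of the 13644 Uhrf1 windows on each chromosome (top, %) and number of bare lost sites per 100 Uhrf1 windows (bottom). All autosomes held sites, at 5.85 to 12.8 per 100 windows, and X, with 15.6% of the windows, had 10.2% of the sites.

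The differences in the histone marks of WT ESCs recurred along the genome, and those of KO ESCs did so less. Compared within each of the 19 autosomes and X, H3K4me3 in WT ESCs was less frequent inside windows than outside on 20 of 20 chromosomes, H3K27me3 more frequent on 19 and H3K9me3 more frequent on 17. KO H3K9me3 was more frequent inside on 9 and less on 11, and KO H3K27me3 more frequent on 7 and less on 12. On X, histone domains were rare in either group: 7 of 112 sites inside (6.25%, 3.06 to 12.3) and 3 of 195 outside (1.54%, 0.525 to 4.42) were under WT H3K9me3, against 57.6% of the autosomal sites inside. WT H3K27me3 covered 9 of the 112 (8.04%, 4.29 to 14.6), against 49.4% of autosomal sites, and KO H3K27me3 0 of 112, which allows a share of up to 2.68%.

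Genes of the developmental lists were nearest to few of the sites. Pluripotency genes were nearest to 3 (0.274%; 0.794% of bare lost sites outside, a difference of -0.520 points, -0.861 to 0.0497), among them sites of family A at 385 kb from Nr5a2 and 478 kb from Sox2. Mesoderm genes were nearest to 6 sites (0.548%; 0.183% outside, a difference of 0.365 points, 0.0256 to 1.01): pairs of sites near Bmp5 and Hand2 and single ones near Gata6 and Mef2c, at 39.5 to 810 kb, of which the Bmp5 sites were of families G and H and the others of family A. Neuroectoderm genes were nearest to 1 site (0.0913%; 0.489% outside, a difference of -0.397 points, -0.646 to 0.0562). Genes of the 2-cell embryo stage, which a minor fraction of ESCs expresses, were nearest to 6 sites (0.548%; 0.0814% outside, a difference of 0.467 points, 0.144 to 1.11): a pair in introns of BB287469, a pair at 13.2 and 42.8 kb from Zscan4f, 1 at 13.2 kb from Zscan4c and 1 at 334 kb from Zfp352. Among the 328 other Oct4 sites inside windows, mesoderm genes were nearest to 2. Pluripotency and 2-cell genes were nearest to 1 of the 328 each, and neuroectoderm genes to 0. With counts this small, no difference from those sites is drawn, and the mesoderm share of the 328 was no lower than that of the bare lost sites inside. The contrasts with bare lost sites outside also rest on few sites, since mesoderm genes were nearest to 9 of those and 2-cell genes to 4.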

How the data were processed

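The authors mapped ChIP-seq reads to mm9 with Bowtie2 2.1.0, reporting a single alignment for each read, and libraries were not pooled. For summits of Oct4, Sox2 and Nanog, called by MACS, the deposited value is a signal, the whole number of reads at the summit (its height). For histone domains, called by RSEG with input as control, the authors deposited a signal, the average reads of a bin, and a score, which increases with domain length. The deposited Uhrf1 list gives 10 kb windows enriched over input, with no value. Whether heights and signals were scaled to depth is not stated, and read totals and the 8 inputs were not used here.

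From these lists, summits within 100 bp were counted as shared and a summit was under a domain when the domain covered it. Shares have Wilson and differences Newcombe 95% intervals. Genes came from the GENCODE annotation of that build and sequence from NCBIM37: no region ended beyond its chromosome in any list (0 of 530 checks, 1 for each list and chromosome). Copies are exact matches of the central 51 bases on both strands. Sequence was read for 1094 of 1095 sites, and 12695 of 12697 WT Oct4 sites. The 201 WT Oct4 sites on unplaced contigs were left out of the comparisons, a choice made after seeing the data. Python 3.11 was used with numpy 2.4.6, pandas 2.3.3, numba 0.67.0 and matplotlib 3.10.9, and the counting was tested on simulated data.

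The sites and gene lists were chosen with earlier results of these data known. Named are the 10 tallest sites (11 with a tie), the 10 tallest within 1 kb of the start of a coding gene, the 5 genes nearest to the most sites (8 with ties), the 3 windows with the most sites and members of the gene lists, some of which are not reported here. Sequences are those of the tallest sites by chromatin class, by octamer and, added after seeing the data, by family. Alternatives changed the summit distance, window edge, height, domain score and distance, chromosomes, sites per window, annotation, and sequence copies.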

Additional observations from a re-analysis of the deposited data

How the results depend on the processing

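Of 122 values under alternatives, over 13 results, 74 moved by less than the counting interval, 42 moved by more and 6 changed sign. With 1 library per group, no replicate could be left out. No paired analysis was possible because each group holds 1 sample. Differences are inside minus outside windows in percentage points unless said otherwise, and a cause was not tested for any of them.

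The share of bare lost sites in Uhrf1 windows (17.7%) was 19.1% and 19.5% with KO summits within 500 and 1000 bp, 19.6% with sites within 1000 bp of a window counted inside, and 5.84% for summits at or above the median height. At those heights, WT H3K9me3 was 1.77, KO H3K9me3 -18.9, WT H3K27me3 0.504, the intergenic share 17.8, WT Sox2 or Nanog -7.54 and the X share 3.63. Within 5 groups of height, WT H3K27me3 was 7.59 and WT H3K4me3 -27.5. On autosomes, WT H3K9me3 was 9.66 and WT H3K27me3 15.2. With summit distances of 500 and 1000 bp, WT H3K4me3 was -25.7 and -22.9, and WT Sox2 or Nanog -4.86 and -4.36; with a WT Sox2 or Nanog summit within 500 bp it was -9.25. With domains above the median score, WT H3K4me3 was -22.5.

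At sites with 1 copy, WT H3K9me3 was 19.5, KO H3K9me3 1.63 (sign changed), WT H3K27me3 21.1, WT H3K4me3 -36.9, the intergenic share 14.1 and the X share 3.30. The following alternatives were chosen after seeing the data. At sites with 2 or more copies, WT H3K9me3 was -7.77, KO H3K27me3 0.448 and the intergenic share -0.428, all with the sign changed, and WT H3K27me3 was 6.71, WT H3K4me3 -5.08, WT Sox2 or Nanog -1.12 and the X share 4.07. Without family A, KO H3K9me3 was -13.5, WT H3K27me3 7.68, WT H3K4me3 -33.2 and the X share 3.42. The degenerate octamer (-9.45) was -4.22 within groups of height, -6.93 at 1 copy, -7.00 at 2 or more copies and -6.46 without family A. Against other Oct4 sites inside windows, WT H3K9me3 was 1.15 for tall summits, -10.9 at 1 copy (sign changed) and 17.9 at 2 or more copies; WT H3K27me3 was -3.03 for tall summits (sign changed) and 4.63 at 1 copy; WT H3K4me3 was -19.1 at 1 copy and -4.41 at 2 or more.

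The lists hold enriched regions only, and a site absent from a list was not distinguished from one under that library's threshold. The KO Oct4 and KO H3K27me3 lists were the shortest of their kinds, with 576 summits and 722 domains.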

Other observations

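The sequence families of the bare lost sites were also looked for around the summits of the other factor lists. None of 489 KO Oct4 summits on placed chromosomes with sequence belonged to a family (which allows a share of up to 0.613%), against 2884 of 12697 WT Oct4 summits (22.7%, 22.0 to 23.5). In the Sox2 lists 74 of 5134 WT summits (1.44%, 1.15 to 1.81) and 708 of 20675 KO summits (3.42%, 3.19 to 3.68) did, with median heights of 18 and 13. In the Nanog lists 0 of 2317 WT summits (which allows a share of up to 0.129%) and 69 of 10554 KO summits (0.654%, 0.517 to 0.827) did. Family A made up 353 of the 708 KO Sox2 summits, at a median height of 12, but 2 of the 69 KO Nanog summits, of which 25 were of family F and 40 of family G. The families were built from WT Oct4 sites chosen for having no KO Oct4, Sox2 or Nanog summit within 100 bp. These sites make up 905 of the 2884 WT Oct4 summits of the families, so the WT and KO shares are partly set by the rule. The lists also differ in length and read totals were not used here, so these shares are given as values.

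Gene families in clusters were nearest to small numbers of the bare lost sites inside Uhrf1 windows. Olfactory receptor genes were nearest to 22 sites (2.01%, against 1.26% of bare lost sites outside), vomeronasal receptor genes to 21 (1.92% against 0.916%), numbered Zfp zinc finger genes to 18 (1.64% against 1.38%), protocadherin genes to 10 (0.913% against 0.692%), potassium and glutamate channel genes to 18 (1.64% against 1.06%) and X-linked multicopy germline genes to 9 (0.822% against 0.285%). Among the 328 other Oct4 sites inside windows, the counts were 9, 11, 7, 3, 2 and 0 in the same order. As shares of the 328, those of olfactory receptor, vomeronasal receptor and zinc finger genes were above the shares of the bare lost sites inside. That of protocadherin genes was near equal, and those of channel and X-linked germline genes were below. A higher vomeronasal share than outside windows was therefore not particular to the bare lost sites. The interval of the difference from bare lost sites outside left out 0 for vomeronasal receptor genes (1.00 points, 0.274 to 2.02) and X-linked germline genes (0.537 points, 0.103 to 1.28). The X chromosome held 10.2% of the sites and 3.97% of bare lost sites outside. X-linked germline genes were nearest to 9 of the 112 X sites inside windows and 14 of the 195 outside, so their difference is not separate from the X share. The tallest olfactory receptor sites, of height 47 and 43, lay 5.32 and 4.24 kb from Olfr503, belonged to families G and F and were under H3K9me3 in WT and KO ESCs. The tallest X-linked germline site lay near Mageb5 (height 31), and Rhox9 and Xlr5c had sites of height 23 and 20, both under no domain, and Ssxa1 one of height 17 under WT H3K27me3 alone.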
